A study of Mus musculus with 778 samples.

Results

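The 10 Fbxw genes *Fbxw14*, *Fbxw15*, *Fbxw16*, *Fbxw18*, *Fbxw19*, *Fbxw20*, *Fbxw21*, *Fbxw22*, *Fbxw24* and *Fbxw28* encode F-box proteins with WD40 repeats and lie close together on mouse chromosome 9. They were taken by symbol from a count table of 23201 genes, and all 10 had a row in it. The table held unique molecular identifiers (UMIs, tags by which amplified copies of 1 cDNA molecule are counted once) per gene in 223 single oocytes, each picked by hand from ovaries of wild-type female ICR mice, an outbred strain. The 46 non-growing oocytes (NGO) were under 20 μm in diameter and came from mice 3 to 4 days old. The 51 GO1 cells (30 to 45 μm), 26 GO2 cells (50 to 55 μm), 44 GO3 cells (60 to 65 μm) and 56 fully-grown oocytes (FGO, over 70 μm) came from mice 3 to 4 weeks old. Oocyte stage and mouse age cannot be told apart wherever NGO is compared with a later stage.

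F-box proteins are the exchangeable part of SCF ubiquitin ligases, complexes of Skp1, a cullin, a RING protein and an F-box protein that attach ubiquitin to other proteins. The F-box docks on Skp1, while the WD40 repeats of an Fbxw protein form a propeller that holds the protein to be marked. Besides the widely expressed members of the family, the mouse carries an expanded group of closely related Fbxw genes in a tandem array, whose transcripts are known from oocytes.

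Levels are given as CPM, the UMIs of a gene summed over the cells of a stage per 1000000 UMIs of that stage, so they are shares of the counted molecules and carry no information on how much RNA an oocyte held. Runs of 5 values are in the order NGO, GO1, GO2, GO3, FGO. Stage totals ran from 24976634 UMIs in GO2 to 64311908 in FGO. A GO1 cell held a median of 110146 UMIs against 540432 in NGO and 676786 to 972294 in the other stages, and the 10 deepest cells gave 80.4% of the GO1 sum and 73.2% of the GO2 sum. The oocyte RNA libraries of the series are titled batch1 to batch4. The columns of the table do not give the library of a cell, so whether the stages share libraries is not known. Each stage is therefore 1 sample without replicates, no test between stages was made, and the 95% intervals cover counting error only. Of 8 oocyte markers, which include the egg coat gene *Zp3* and the oocyte growth factor *Gdf9*, all reached 10 CPM and their summed level was between 17593 and 34386 CPM. The 10 granulosa markers summed to between 9.41 and 29.8 CPM, the 8 stromal and theca markers to between 2.09 and 13.6 CPM, and the 5 blood and endothelial markers to between 9.09 and 50.5 CPM. Of these, *Cyp19a1* (up to 16.3 CPM, in GO1) and *Pecam1* (up to 48.8 CPM, in GO3) alone reached 10 CPM, the defining granulosa gene *Foxl2* stood at no more than 0.233 CPM, and the globin genes *Hbb-b1* and *Hba-a1* had 0 UMIs in all stages, which allows up to 0.120 CPM in GO2.

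In the NCBIM37 build (the same assembly as mm9) with GENCODE vM1 genes, the 10 members spanned 563 kb at chr9:109041968-109605214, all on the minus strand and each with 10 exons. In order along the chromosome they were *Fbxw21*, *Fbxw20*, *Fbxw14*, *Fbxw28*, *Fbxw22*, *Fbxw16*, *Fbxw19*, *Fbxw15*, *Fbxw24* and *Fbxw18*, with the further array gene *Fbxw13* between *Fbxw21* and *Fbxw20*, and *Fbxw26* after *Fbxw18*. Their coding sequences were 1395 to 1410 bases long. Over the 45 pairs of members, the aligned coding sequences were identical at 79.1% to 99.1% of positions, with a median of 83.7%. The *Fbxw14* and *Fbxw28* pair stood at the top with 99.1%, followed by *Fbxw14* with *Fbxw22* at 92.3% and *Fbxw28* with *Fbxw22* at 91.9%. The least alike pair was *Fbxw28* with *Fbxw24*, at 79.1%, next to *Fbxw14* with *Fbxw24* at 79.3%.

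**Figure D1:**
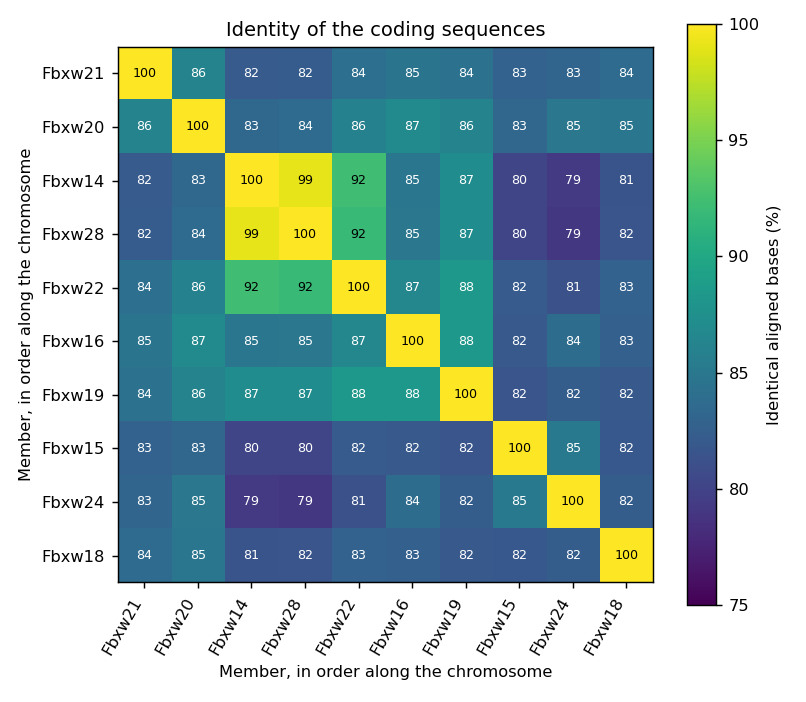
Identity of the coding sequences of the 10 members as a percentage of aligned bases, with the members in order along chromosome 9 on both axes and the colour scale from 75% to 100%. Fbxw14, Fbxw28 and Fbxw22 form a block of 91.9% to 99.1%, and the other pairs lie lower.

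The likeness matters for the counts, because a read that fits 2 genes equally well cannot be given to either of them. Whether such reads were kept by the authors, and which end of a transcript the counted reads came from, is not given in the sources used here. The last 90 coding bases, stop codon included, are printed for the nearly identical pair, for its closest relative *Fbxw22*, and for the abundant members *Fbxw24* and *Fbxw18*. Capitals mark bases that differ from *Fbxw14*.

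Fbxw14, chr9:109173698-109173787, minus strand: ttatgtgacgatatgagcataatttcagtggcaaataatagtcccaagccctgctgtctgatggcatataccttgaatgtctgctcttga
Fbxw28, chr9:109225807-109225896, minus strand: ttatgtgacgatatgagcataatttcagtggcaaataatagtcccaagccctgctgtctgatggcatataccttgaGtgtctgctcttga
Fbxw22, chr9:109281315-109281404, minus strand: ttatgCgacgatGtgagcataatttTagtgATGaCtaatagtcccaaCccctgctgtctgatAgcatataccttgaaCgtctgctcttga
Fbxw24, chr9:109503688-109503777, minus strand: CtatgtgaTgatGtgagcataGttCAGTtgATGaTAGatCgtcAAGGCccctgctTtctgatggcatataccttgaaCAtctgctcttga
Fbxw18, chr9:109579306-109579395, minus strand: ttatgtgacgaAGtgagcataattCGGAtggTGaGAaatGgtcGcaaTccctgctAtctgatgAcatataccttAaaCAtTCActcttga

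In this stretch *Fbxw28* differed from *Fbxw14* at 1 base, *Fbxw22* at 10, *Fbxw18* at 21 and *Fbxw24* at 23. Of all stretches of 100 bases in the *Fbxw14* transcript, 44.8% were found unchanged in a transcript of another array gene, and for *Fbxw28* the share was 46.4%, in both cases most often in the other gene of the pair. In the last 500 bases the shares were 37.2% and 61.3%. For the other 8 members the share was between 0 and 3.27% over the whole transcript, and it was 0 in the last 500 bases. Shorter reads would leave more in doubt, as stretches of 50 bases were shared at 67.01% and 67.3% for *Fbxw14* and *Fbxw28*, and at 3.34% (*Fbxw24*) to 13.1% (*Fbxw19*) for the other 8. In the last 500 bases, 50-base stretches were shared at 8.20% for *Fbxw19*, 3.10% for *Fbxw22* and 0 for the other 6 of these. The split of UMIs between *Fbxw14* and *Fbxw28* is therefore uncertain, their sum less so, and both are given.

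The windows just before the annotated gene starts were also alike. Over the 250 bases upstream, pairs of members were identical at 71.2% to 96.4% of aligned positions (median 83.5%, 45 pairs), again with *Fbxw14* and *Fbxw28* at the top. The 170 bases nearest to the start are printed for the members with the highest levels (*Fbxw24* and *Fbxw14*), for those with the greatest and the smallest difference between NGO and GO1 (*Fbxw19* and *Fbxw18*), and for *Fbxw20*, whose window lacked a string that the other 9 had. They are written 5′ to 3′ on the strand of the gene, ending at its start, and capitals mark the E-box pattern CANNTG and the string TTTAAA.

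Fbxw24, chr9:109528572-109528741, minus strand: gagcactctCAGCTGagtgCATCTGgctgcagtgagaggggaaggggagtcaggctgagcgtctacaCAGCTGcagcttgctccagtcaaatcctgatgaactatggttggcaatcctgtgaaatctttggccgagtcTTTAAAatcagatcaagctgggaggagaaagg
Fbxw14, chr9:109190191-109190360, minus strand: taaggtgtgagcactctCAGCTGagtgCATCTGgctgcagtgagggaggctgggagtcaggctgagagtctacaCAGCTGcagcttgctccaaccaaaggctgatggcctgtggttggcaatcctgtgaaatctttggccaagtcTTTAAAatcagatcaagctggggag
Fbxw19, chr9:109398390-109398559, minus strand: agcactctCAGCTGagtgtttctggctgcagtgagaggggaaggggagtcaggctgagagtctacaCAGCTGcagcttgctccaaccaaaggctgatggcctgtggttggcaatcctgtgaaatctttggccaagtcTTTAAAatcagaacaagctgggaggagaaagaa
Fbxw18, chr9:109605215-109605384, minus strand: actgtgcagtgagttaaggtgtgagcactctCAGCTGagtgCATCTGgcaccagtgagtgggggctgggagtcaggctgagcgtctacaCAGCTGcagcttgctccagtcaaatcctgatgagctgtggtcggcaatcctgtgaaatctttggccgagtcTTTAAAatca
Fbxw20, chr9:109137269-109137438, minus strand: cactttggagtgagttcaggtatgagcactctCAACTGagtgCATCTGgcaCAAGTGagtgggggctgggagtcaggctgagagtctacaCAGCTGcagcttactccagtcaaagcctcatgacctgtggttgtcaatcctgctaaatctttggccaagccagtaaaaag

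The E-box pattern CANNTG, the core read by basic helix-loop-helix factors, was searched on both strands of the 250 bases and was present 2 to 5 times in all 10 windows, against at least once in 63.5% of 22375 windows of protein-coding genes. The form CAGCTG, which overlaps CANNTG and was chosen after the sequences were seen, was in all 10 windows and in 11.8% of all windows. The string TTTAAA, chosen in the same way, was in 9 of the 10 windows and in 11.7% of all, and *Fbxw20* was the member without it. The longest string common to all 10 members was AAATCTTTGG, which was in 23 of the 22375 windows, or 0.103%, these 10 included. Of the other motifs searched, the homeodomain strings TAATTG (6.72% of all windows) and TAATTA (4.62%) were in none of the 10 windows. The same held for the E-box forms CACCTG (17.01%) and CACGTG (6.52%) and for the TATA string TATAAA (12.3%). Such a match is a description of letters, and the array members share these letters along with the rest of their windows.

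All 10 members had at least 1 UMI in each of the 223 oocytes. Together they held 0.579%, 1.93%, 2.39%, 2.19% and 1.98% of all UMIs from NGO to FGO. In single cells their summed level ran from 2257 to 11500 CPM in NGO (median 4815), from 7902 to 27302 CPM in GO1 (median 13651) and from 8275 to 29416 CPM in GO2 (median 23868). It ran from 15754 to 27779 CPM in GO3 (median 21942) and from 11697 to 27736 CPM in FGO (median 20356). The ranges of NGO and GO1 cells met, with 40 of 51 GO1 cells above the highest NGO cell, while all 56 FGO cells lay above all 46 NGO cells. Among the 5 stages the sum was lowest in NGO and highest in GO2.

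Per transcript length, *Fbxw24* was highest and *Fbxw22* lowest of the members in CPM per kb in all 5 stages, and *Fbxw24*, *Fbxw14*, *Fbxw18*, *Fbxw15* and *Fbxw16* led in this order from GO1 to FGO. In NGO the order was another one, with *Fbxw21* ahead of *Fbxw28*, *Fbxw20* and *Fbxw19*. *Fbxw24* stood at 1067 CPM per kb in NGO and at 3193, 4190, 4073 and 4177 CPM per kb in GO1, GO2, GO3 and FGO. *Fbxw22* stood at 62.6 CPM per kb in NGO and at 386, 443, 443 and 320.3 CPM per kb in the later stages. *Fbxw14* was the next in order after *Fbxw24* from GO1 on, whereas in NGO, at 514 CPM per kb, it stood behind *Fbxw18* (723 CPM per kb) and *Fbxw15* (544 CPM per kb) as well. That order in NGO rests on the division by length, since in CPM *Fbxw14* (918) stood ahead of *Fbxw15* (812). A UMI counts a cDNA molecule once, so CPM need not grow with transcript length. In GO1, *Fbxw19* and *Fbxw28* could not be ranked against each other, at 818.8 and 818.4 CPM per kb.

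*Fbxw24* was the most abundant member. Its level was 1586, 4747, 6230.4, 6057 and 6210.45 CPM from NGO to FGO, which placed it at rank 50 of the 16449 genes with a UMI in NGO and at rank 8 in the last 3 stages (ranks are by CPM, without regard to length). In single NGO cells the level ran from 545 to 3613 CPM (median 1396), and in FGO cells from 4417 to 10298 CPM (median 6499). No FGO cell was as low as the highest NGO cell. The highest stage was GO2 in the sums, but FGO in the mean over cells (6793 CPM), in thinned cells and without the deepest cells.

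*Fbxw14* had 918, 4133, 5440.4, 4708 and 3675 CPM, and was at rank 11 of all genes in GO2 and at rank 16 in FGO. It was thus highest in GO2 and lowest in NGO. Its nearly identical partner *Fbxw28* had 249, 1220.2, 1532, 1371 and 1011 CPM, the same order of stages. Summed, the pair had 1167, 5353, 6972, 6079 and 4686 CPM in the 5 stages. The ratio of *Fbxw28* to *Fbxw14* UMIs stayed between 0.272 and 0.295 over the 5 stage sums. In single FGO cells *Fbxw14* ran from 785 to 5589 CPM (median 3671), a wider range than the 2558 to 6108 CPM of GO3 cells (median 4869).

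*Fbxw18* and *Fbxw15*, which with *Fbxw24* lie at the end of the array with the highest coordinates, were next in order after *Fbxw24* per kb in NGO. In CPM, *Fbxw14* (918) stood between *Fbxw18* and *Fbxw15* in that stage. *Fbxw18* had 1099, 1972, 2486, 2239 and 2479 CPM, with GO2 and FGO nearly level, and it was highest in FGO in the mean over cells. The GO1 sum and the GO1 cells stood apart, as the median GO1 cell had 1101 CPM, close to the 935 CPM of the median NGO cell, and 7 of 51 GO1 cells exceeded the highest NGO cell. *Fbxw15* had 812, 1883, 2032, 1905 and 2195 CPM, highest in FGO, but with size factors or TMM factors it was highest in GO2. Its median cell had 752 CPM in NGO, 1536 in GO1 and 2244 in FGO.

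*Fbxw16* and *Fbxw19*, which are neighbours in the array, stood at 277 and 87.2 CPM per kb in NGO. *Fbxw16* had 419, 1666, 1992, 1777 and 1261 CPM. *Fbxw19* had 129.8, 1218, 1419, 1226 and 807 CPM, highest in GO2 as well. For *Fbxw19*, 50 of 51 GO1 cells exceeded the highest NGO cell (254 CPM), and the median over cells was 99.4 CPM in NGO against 898 in GO1.

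*Fbxw21*, *Fbxw20* and *Fbxw22* had the lowest levels per kb from GO1 to GO3. *Fbxw21* had 279.8, 982, 1025, 969 and 900.3 CPM, the flattest course of the 3 after NGO. *Fbxw20* had 180.5, 765, 913, 887 and 697 CPM. *Fbxw22* had 114.1, 704, 808, 807 and 584 CPM, the lowest of all members in each stage, and stood at rank 1914 in NGO and rank 252 in FGO. The number of members among the 100 most abundant genes was 2 in NGO, 7 in GO1, GO2 and GO3, and 5 in FGO.

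**Figure D2:**
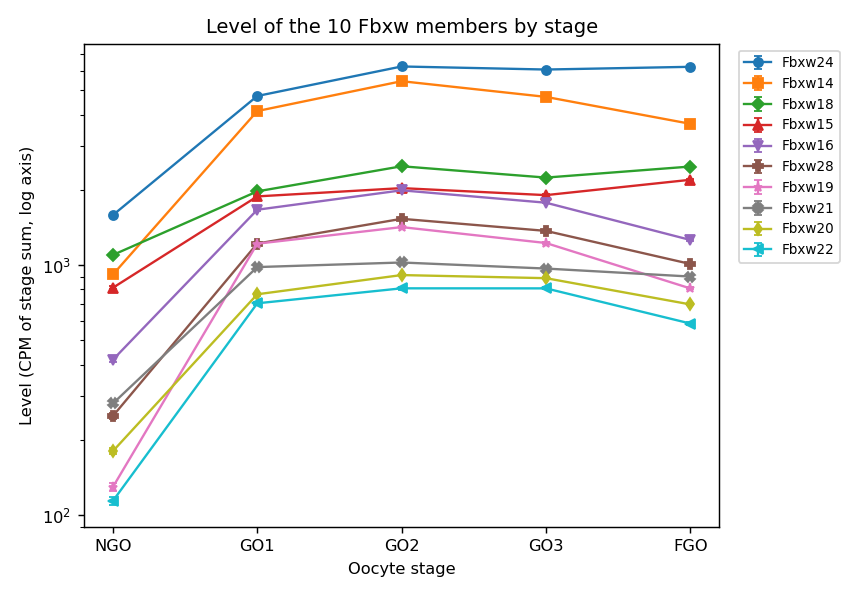
Level of each member (CPM of the stage sum, log axis) in the 5 oocyte stages, with 95% counting intervals that are mostly smaller than the points. All 10 lines are higher in GO1 than in NGO. From GO3 to FGO those of Fbxw18 and Fbxw15 end higher, that of Fbxw24 stays within 1.03-fold and the other 7 end lower. The Fbxw24 ratio was 0.98 with size factors or TMM factors and 1.11 in the mean over cells.

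**Figure D3:**
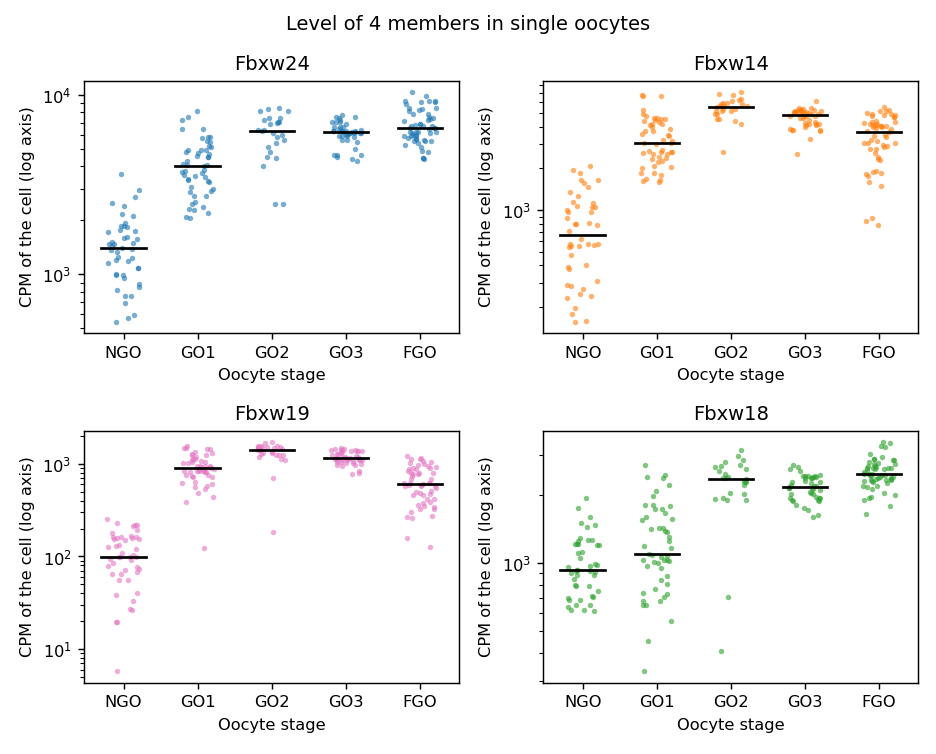
CPM of Fbxw24, Fbxw14, Fbxw19 and Fbxw18 in each of the 223 single oocytes (points, log axis) by stage, with the median of the cells as a bar. Fbxw19 cells of NGO and GO1 are nearly separate, those of Fbxw18 overlap widely, and Fbxw14 and Fbxw19 spread toward low values in FGO.

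From NGO to GO1, the members together rose 3.33-fold (95% interval 3.31 to 3.35). A gene was called when 2 stages were 2-fold or more apart and the greater value was 10 CPM or more. By this rule 9 of the 10 members were higher in GO1, where 20.6% of the 8527 genes compared were higher, and none was lower, where 25.7% were. The median of the members was a log2 difference of 2.04, and that of all genes compared was -0.14. *Fbxw19* rose most, 9.39-fold (9.06 to 9.73), followed by *Fbxw22* with 6.17-fold (5.93 to 6.41). *Fbxw28* rose 4.89-fold, *Fbxw14* 4.50-fold, *Fbxw20* 4.24-fold, *Fbxw16* 3.98-fold and *Fbxw21* 3.51-fold. In the mean over cells *Fbxw19* (8.30-fold) and *Fbxw22* (5.36-fold) led as well. The order behind them changed there, with *Fbxw14* at 4.20, *Fbxw28* and *Fbxw21* at 3.84, *Fbxw16* at 3.54 and *Fbxw20* at 3.51. The rises of the already abundant *Fbxw24* and *Fbxw15* were smaller, at 2.99-fold (2.96 to 3.03) and 2.32-fold (2.28 to 2.36). *Fbxw18* was 1.80 times as high in GO1 (1.77 to 1.82), which missed the limit, although it reached 2.01-fold with TMM scaling and was 1.26-fold in the mean over cells. The sum of *Fbxw14* and *Fbxw28* rose 4.59-fold (4.53 to 4.65).

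The GO1 cells differed among themselves along with their depth. Over the 51 GO1 cells, Spearman's rho between the summed member CPM and the UMIs of the cell was 0.81, and it was 0.75 after each cell had been thinned to 20000 UMIs. In the other stages rho was between 0.06 and 0.35, or between 0.02 and 0.36 after thinning. These are descriptions over cells, which may share a library. With every cell weighed equally, by averaging CPM over cells, the summed members were at a log2 difference of 1.57 between NGO and GO1, against 1.74 for the sums, and they were at 1.60 in thinned cells and at 1.86 without the 10 deepest cells of each stage. Thinned cells held a median of 100.5, 267, 483, 435 and 406 member UMIs.

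**Figure D4:**
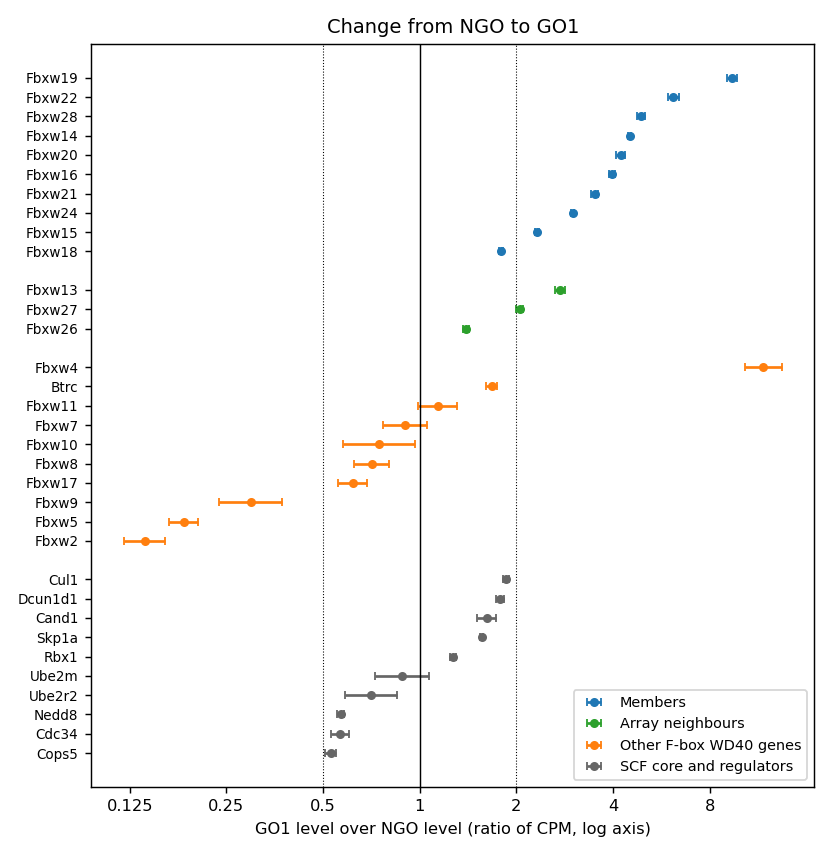
Ratio of the GO1 to the NGO level (CPM, log axis) for the 10 members, the 3 further array genes, 10 other F-box WD40 genes and 10 genes of the SCF core and its regulators, with 95% counting intervals and dotted lines at 0.5 and 2. All members lie above 1, from 1.80 for Fbxw18 to 9.39 for Fbxw19, while the SCF genes lie between 0.529 and 1.86 in these stage sums.

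Within the growing stages all member differences stayed under the 2-fold limit. From GO1 to GO2 the members were 1.04 to 1.32 times as high in the stage sums, with a median ratio of 1.19 against 0.929 over 7356 genes compared. None of the 10 was called higher (0.109% of all genes were) and none lower (3.03% were). In the sums *Fbxw14* and *Fbxw24* were at the upper end with 1.32 and 1.31, and *Fbxw21* was at the lower end with 1.04, a member that was at 0.93 to 0.99 in thinned cells, in the mean over cells and without the deepest cells. The upper end moved with the weighting of cells. In the mean over cells *Fbxw18* (1.77) and *Fbxw28* (1.75) led, with *Fbxw14* at 1.62 and *Fbxw24* at 1.47. Without the deepest cells *Fbxw18* was at 1.53, *Fbxw28* at 1.41, *Fbxw14* at 1.33 and *Fbxw24* at 1.21. From GO2 to GO3 the ratios were between 0.864 and 0.9996, with a median of 0.919 against 1.06 over all 7334 genes compared. No member was called higher (3.34% of all genes) or lower (1.01%) at this step. *Fbxw22* had nearly equal levels of 807.8 and 807.4 CPM in GO2 and GO3, with overlapping intervals. The order of GO2 and GO3 turned under 1 or more alternatives for *Fbxw18*, *Fbxw20*, *Fbxw21*, *Fbxw22* and *Fbxw24*, whose ratios then reached 1.03, 1.05, 1.002, 1.04 and 1.03.

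From GO3 to FGO the members parted. *Fbxw15* was 1.15 times as high in FGO (1.14 to 1.16), *Fbxw18* 1.11 times (1.10 to 1.12) and *Fbxw24* 1.03 times (1.02 to 1.03). The other 7 were lower, from *Fbxw21* at 0.929 of its GO3 level (0.918 to 0.940) to *Fbxw19* at 0.658 (0.651 to 0.666). *Fbxw16* stood at 0.710, *Fbxw22* at 0.724, *Fbxw28* at 0.738, *Fbxw14* at 0.781 and *Fbxw20* at 0.785. None of the 10 passed the 2-fold limit, upward (2.41% of 7622 genes compared did) or downward (3.54%). The median ratio of the members was 0.783 and that of all genes compared 1.04. In single cells, 37 of 56 FGO cells had less *Fbxw19* than any GO3 cell, and 23 of 56 had more *Fbxw15* than any GO3 cell. *Fbxw19* and *Fbxw15* are the ends of the range above, and cells are not replicates of a stage. The shallowest cell held 61555 UMIs in FGO against 232640 in GO3. The 3 members that were not lower, *Fbxw15*, *Fbxw24* and *Fbxw18*, have the highest coordinates of the 10. Of the further array genes, *Fbxw26* beside *Fbxw18* went from 1031 to 1122 CPM. *Fbxw13*, near the other end, was nearly level at 579 and 565 CPM. The direction for *Fbxw24* depended on the scaling, with 0.98 under both size factors and TMM factors. Its ratio was 1.11 in the mean over cells, 1.13 in thinned cells and 1.09 without the deepest cells.

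Set against GO1 rather than GO3, FGO held 1.31 times as much *Fbxw24*, 1.26 times as much *Fbxw18* and 1.17 times as much *Fbxw15*. The other 7 members were at 0.663 (*Fbxw19*) to 0.916 (*Fbxw21*) of the GO1 level in the sums. None was called, where 7.98% of 7873 genes were higher and 9.03% lower. The value for *Fbxw18* rested on the weight of the deep GO1 cells, and was 1.96 in the mean over cells, 1.92 in thinned cells and 1.84 without the 10 deepest cells of each stage. In the mean over cells, *Fbxw24* was at 1.63 and *Fbxw15* at 1.51. *Fbxw14* was at 1.03 and *Fbxw20* at 1.14 in that mean, and in thinned cells these last were at 1.03 and 1.15 with *Fbxw28* at 1.01, so the direction of these 3 members between GO1 and FGO turned with the weighting of cells. Since GO1 enters both this comparison and the preceding ones, they are not independent.

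The make-up of the group changed with the level. Of the UMIs of the 10 members in the stage sums, *Fbxw18* held 18.98% in NGO (18.8% to 19.2%, Wilson interval), between 10.2% and 10.4% from GO1 to GO3, and 12.5% in FGO. In the median cell the share of *Fbxw18* was 19.8%, 8.03%, 9.84%, 9.99% and 12.6%. *Fbxw15* went from 14.04% in NGO to 9.76% in GO1 and 8.51% in GO2, and stood at 11.1% in FGO. *Fbxw14* held 15.9% in NGO, 21.4% in GO1, 22.8% in GO2 and 18.5% in FGO. *Fbxw19* held 2.24% in NGO, 6.32% in GO1 and 4.07% in FGO. In the median cell the share of *Fbxw19* was 2.14%, 6.06% and 2.92% in these stages. *Fbxw24* was the largest part in all stages, between 24.6% in GO1 and 31.3% in FGO.

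**Figure D5:**
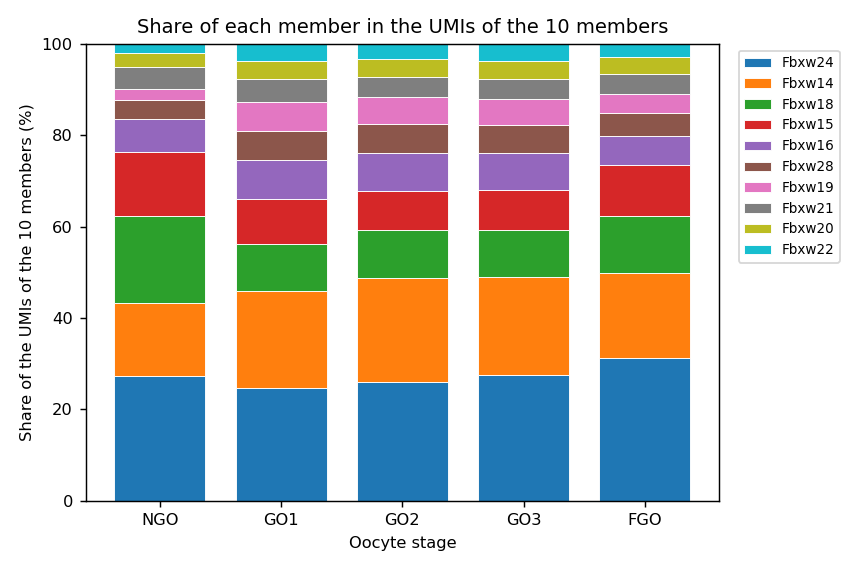
Share of each member in the UMIs of the 10 members (stacked bars, percent) for the 5 stages. The shares of Fbxw18 and Fbxw15 are larger in NGO than in the later stages, those of Fbxw14 and Fbxw19 are larger in GO1 to GO3 than in NGO, and Fbxw24 reaches 31.3% in FGO.

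Ratios of 2 members in the same cell do not depend on how the cell was scaled. *Fbxw19* and *Fbxw18* were paired because their differences between NGO and GO1 were the greatest and the smallest, so their ratio restates that choice cell by cell. The median ratio of *Fbxw19* to *Fbxw18* UMIs was 0.108 over the 46 NGO cells, with the highest cell at 0.227. It was 0.751 over the GO1 cells, with the lowest at 0.350, so that the NGO and GO1 cells did not overlap. The GO2, GO3 and FGO medians were 0.577, 0.554 and 0.249. The ratio of *Fbxw14* to *Fbxw24* had medians of 0.611, 0.815, 0.872, 0.791 and 0.555, and its ranges overlapped between all stages. The median ratio of *Fbxw28* to *Fbxw14* was between 0.235 and 0.281 in the 5 stages.

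Across cells of a stage most pairs of members had a positive correlation. Spearman's rho between the UMIs of 2 members, in cells thinned to 20000 UMIs, had medians over the 45 pairs of 0.42, 0.63, 0.47, 0.25 and 0.39. Over all pairs of genes outside the Fbxw rows whose CPM lay between those of the lowest and the highest member in the stage (at least 9730 pairs), the medians were 0.0030, 0.038, 0.0073, 0.021 and 0.0064. Between 50.7% and 54.1% of those pairs were above 0, and the genes had a lower median CPM than the members in each stage. All 45 pairs were above 0 in NGO and GO1, 44 were in GO2, and 41 were in GO3 and in FGO. *Fbxw14* and *Fbxw28* were the closest pair in NGO (rho of 0.76, 46 cells) and in FGO (0.80, 56 cells), and this is the pair with long stretches in common. In GO1 the pair (0.81) was next to *Fbxw14* with *Fbxw18* (0.82). In GO2 (0.58) and GO3 (0.26) it was well below the closest pairs, *Fbxw16* with *Fbxw24* (0.79) and *Fbxw20* with *Fbxw24* (0.48). The cells may share a library and differ in depth, so these coefficients are descriptions.

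Of the 12 other rows whose symbol starts with Fbxw, 3 were grouped with the array, *Fbxw13* and *Fbxw26* by position and *Fbxw27*, for which GENCODE vM1 gave no position, by name alone. *Fbxw13* had 173, 473 and 565 CPM in NGO, GO1 and FGO, and *Fbxw27* had 345, 708 and 798 CPM in these stages. *Fbxw26*, at the end of the array next to *Fbxw18*, had 626 CPM in NGO, 874 in GO1 and 1122 in FGO. *Fbxw13* and *Fbxw27* were called higher in GO1 (2.74-fold and 2.05-fold), while *Fbxw26* was 1.40 times as high. All 3 were at 0.975 to 1.10 of the GO3 level in FGO. With these relatives, the 13 array genes held 0.693% of UMIs in NGO and 2.63% in GO2.

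The F-box WD40 genes outside the array had at most 61.4 CPM per kb in any stage (*Fbxw4*, GO2), while the lowest member value was 62.6 CPM per kb (*Fbxw22*, NGO). This order rests on the division by transcript length, since in CPM *Btrc* (178 in NGO) stood above *Fbxw19* (129.8) and *Fbxw22* (114.1) in that stage. *Fbxw2*, *Fbxw4*, *Fbxw5*, *Fbxw7*, *Fbxw8*, *Fbxw9*, *Fbxw10*, *Fbxw11*, *Fbxw17* and *Btrc* summed to 441 CPM in NGO and to between 453 and 547 CPM in the later stages. In the mean over cells the sum was 437, 299.6, 448, 429 and 348 CPM, so from NGO to GO1 it was at 1.17 in the stage sums but at 0.686 in the mean over cells, with 32 of 51 GO1 cells below all NGO cells. Of the 9 that reached 10 CPM in NGO or GO1, 1 was higher and 3 were lower in GO1, and 5 were lower in the mean over cells. *Fbxw4* rose from 10.001 to 117.5 CPM, while *Fbxw2* fell from 55.5 to 7.74 CPM, *Fbxw5* from 92.03 to 16.9 CPM and *Fbxw9* from 13.1 to 3.92 CPM. The ratio of *Fbxw4* was 11.7 in the sums and 6.74 in the mean over cells, and that of *Fbxw5* was 0.184 and 0.0623. *Btrc*, the β-TrCP adaptor that recognises phosphorylated degrons such as that of β-catenin, stood at 178 and 298 CPM in NGO and GO1, but at 168.7 and 139.4 CPM in the mean over cells, which turns the direction. *Fbxw7*, the adaptor for cyclin E, was at 13.2 and 11.8 CPM in the same stages, and its direction turned in the mean over cells as well (ratio of 1.35).

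The shared parts of the SCF complex reached 2236 CPM per kb (*Skp1a*, GO3). *Skp1a*, which encodes the Skp1 adaptor that the F-box binds, had 2028, 3159, 3057, 3220.5 and 2773 CPM. Between NGO and GO1 the scaffold gene *Cul1* went from 398 to 739 CPM and the RING gene *Rbx1* from 686 to 871 CPM. *Nedd8*, whose product activates cullins, went from 560.2 to 318 CPM, which is short of the limit. Of the 9 genes of the core and its regulators that reached 10 CPM, none was called higher or lower from NGO to GO1 in the stage sums, and none in the later steps. That count depended on the weighting of cells. In the mean over cells *Skp1a* (2.05-fold), *Cul1* (2.02-fold) and *Cand1*, a regulator of cullin assembly (2.06-fold), passed the limit upward, and *Cdc34*, a ubiquitin-conjugating enzyme, passed it downward at 0.473. Without the 10 deepest cells of each stage 2 were higher and 2 lower, and with TMM factors *Cul1* alone was higher. Later steps depended on the weighting too. In the mean over cells *Cand1* and *Ube2r2* were called lower from GO1 to GO2, and *Cand1* lower from GO1 to FGO. In thinned cells 1 gene was called higher and 1 lower from GO2 to GO3. From GO3 to FGO no setting called any. The median log2 difference from NGO to GO1 was 0.34 for these 9 genes.

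F-box genes of other classes went both ways. Of 58 rows for Fbxo and Fbxl genes, *Ccnf* and *Skp2*, 38 were compared from NGO to GO1, of which 13 were higher and 6 lower in GO1. Over all genes compared at this step, 20.6% were higher and 25.7% lower. The list counts were 13 and 11 of 39 in the mean over cells, and 10 and 17 of 38 without the 10 deepest cells. No share of all genes is given for those settings. The greatest rises were those of *Fbxl17* (5.60 to 60.6 CPM, 10.8-fold, 9.12 to 12.96) and *Fbxo33* (6.27 to 38.4 CPM, 6.12-fold, 5.17 to 7.28). The greatest falls were those of *Fbxl18*, from 21.03 to 4.56 CPM, and *Fbxo38*, from 54.1 to 18.1 CPM. The median log2 difference of the 38 genes was -0.14. The highest CPM values among these genes were those of *Fbxo34* (389 CPM, GO1), *Fbxo5* (273 CPM, GO2), which encodes the APC/C inhibitor Emi1, and *Fbxl6* (257 CPM, GO2).

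The course of the summed members over the 5 stages was compared with that of 6357 genes outside the Fbxw rows with at least 10 CPM in each of the stages from GO1 to FGO. Likeness was measured as the root mean square difference of log2(CPM + 1) after the mean of each gene had been subtracted. The closest were *Ccdc69* (0.066), *Sbds* (0.073), *D6Ertd527e* (0.077), *H3f3b* (0.078) and *Unc50* (0.079). *H3f3b*, which encodes the replacement histone H3.3, had 1621, 5253, 6458, 6268 and 6233 CPM. *Sbds*, a ribosome maturation gene, had 94.3 CPM in NGO, 334 in GO1 and 317 in FGO. Of the members themselves, *Fbxw21* was closest to the sum (0.090, with 7 other genes closer) and *Fbxw19* was farthest (0.55, with 1502 other genes closer). With 5 stages, such a likeness rests mainly on the difference between NGO and the rest.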

How the data were processed

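Single oocytes were profiled by single-cell RNA-seq with UMIs. The authors sorted reads by cell barcode, aligned them with Tophat to the mm9 transcriptome, removed duplicates by UMI, filtered cells and deposited raw counts of UMIs per gene and cell. The handling of reads with several matches and of strand is not given in the sources used here. CPM were computed from the UMIs summed per stage. Sums carry exact Poisson intervals, ratios exact binomial and shares Wilson intervals, all at 95%. The columns name no library and 0 value columns were left unused, so the planned edgeR test of sums per library was not run, and the rule of at least 2-fold and at least 10 CPM took its place. The code for the rule and the intervals was tested on simulated data with known changes. All 10 members and the genes ranked by the stated rules are named, and other F-box WD40 and SCF genes could be named from 10 CPM on. The members and lists were chosen with earlier results of these data known. No doublet caller was run on the hand-picked cells. The 223 columns of cells were all distinct, and the table holds no barcodes, so barcodes shared by libraries could not be counted. The iscCOOL-seq data of the study were not analysed here. Coding sequences and start windows were read from NCBIM37 with GENCODE vM1 and aligned with Biopython 1.88. Levels per kb use the length of the transcript with the longest coding sequence. Alternatives were DESeq2 1.42.0 size factors and TMM factors of edgeR 4.0.16, both used for scaling only, no filter, limits of 50 CPM or 1.5-fold, averaging CPM over cells, thinning cells to 20000 UMIs, and leaving out the 10 deepest cells per stage. The software was R 4.3.3 and Python 3.11.15 with scipy 1.17.1, pandas 2.3.3 and numpy 2.4.6, and figures were drawn with matplotlib 3.10.9.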

Additional observations from a re-analysis of the deposited data

How the results depend on the processing

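Each stage was 1 pooled sample, so every statement rests on the size of a difference and on counting error, and depth in GO1 and GO2 came from few cells. The summed members were at a log2 difference of 1.74 (NGO to GO1), 0.31 (GO1 to GO2), -0.12 (GO2 to GO3), -0.15 (GO3 to FGO) and 0.039 (GO1 to FGO), and the sign was the same under every alternative tried. In the same order of steps the value was 1.84, 0.50, -0.27, -0.21 and 0.020 with DESeq2 size factors, and 1.90, 0.47, -0.21, -0.21 and 0.053 with TMM factors. It was 1.57, 0.57, -0.10, -0.13 and 0.35 as the mean over cells, and 1.86, 0.32, -0.060, -0.11 and 0.14 without the 10 deepest cells of each stage. In thinned cells it was 1.60 (NGO to GO1), 0.58 (GO1 to GO2), -0.12 (GO3 to FGO) and 0.33 (GO1 to FGO). The cause of these shifts was not tested. The median of 8671 genes moved as well, from NGO to GO1 by 0.15 with TMM factors, -0.22 in the mean over cells, -0.21 in thinned cells and -0.29 without the deepest cells. From GO1 to GO2 it moved by 0.19, 0.16, 0.11 and 0.18 with DESeq2 size factors, TMM factors, the mean over cells and without the deepest cells. It moved by -0.14 from GO2 to GO3 with DESeq2 size factors, and from GO1 to FGO by 0.11 in the mean over cells and 0.20 without the deepest cells. The shifts not listed did not exceed 0.097 in either direction (DESeq2 size factors, NGO to GO1). From GO3 to FGO they lay between -0.079 (thinned cells) and -0.048 (without the deepest cells). The number of members called higher from NGO to GO1 was 9 or 10 throughout, with *Fbxw18* joining under TMM factors and at the 1.5-fold limit. At that limit 1 member, *Fbxw19*, was also called lower from GO3 to FGO and from GO1 to FGO, where the 2-fold limit called 0. The share of all genes called under these alternatives is not given here, so these counts have no background beside them. The calls over the other F-box and SCF lists from NGO to GO1 were recomputed under the same settings after the data had been seen, and the SCF list went from 0 called to between 0 and 3 higher and between 0 and 2 lower. No paired analysis was possible because the columns carry no replicate number and no test between stages was made.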
